A study of Mus musculus with 2 samples.

Results

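Cycling CD8 T cells are the CD8 T cells of the tumor infiltrate whose RNA shows them to be copying their DNA or dividing. They were selected by counts of unique molecular identifiers (UMIs), each of which stands for 1 captured RNA molecule. A cell had to hold at least 2 UMIs over Cd3d, Cd3e and Cd3g, at least 1 over Cd8a and Cd8b1, none of Cd4, fewer than 10 over the complement genes C1qa, C1qb and C1qc of macrophages, and at least 2 over Mki67, Top2a and Birc5. Only barcodes with at least 200 genes and at most 10% mitochondrial UMIs were used. The rule was met by 563 of 19950 cells, of which 278 (of 10037) came from the MWA and 285 (of 9913) from the MWA plus TIGIT group. The cells meeting the same rule apart from the last condition, 1407 and 1554, are called other CD8 T cells here.

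MC38 cells, a mouse colon carcinoma line, had been grown subcutaneously in both flanks of C57BL/6 mice, and the right tumor of both groups was treated by microwave ablation (MWA) at about 300 mm3. Mice of the MWA plus TIGIT group also received intraperitoneal injections of an antibody that blocks the inhibitory receptor TIGIT, 3 in number per the labels and another number per the study's methods, at intervals of 3 days from day 1 after ablation, whereas the MWA group was given an isotype control per the study's methods. CD45+ cells were sorted on day 8 from the left tumor, which had not been ablated, so every value below belongs to the distant tumor. Each group is 1 library, and the number of mice behind it is not given in the sources used here. Per the study's methods the mice were young adult males. With 1 library per group there was no replicate and no test between the groups, and all intervals below are 95% intervals that cover counting error only.

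T cells that recognise antigen leave the resting state and divide repeatedly. E2F factors first switch on the genes that license origins, make nucleotides and copy DNA, and the histones are made while the DNA is copied. The genes for the centromere, the spindle and its checkpoint come later, through B-MYB and FOXM1. The DREAM complex, which represses these genes in resting cells, binds their promoters at the cell cycle homology region (CHR). Mki67, Top2a and Birc5, the genes of the rule, encode a coat protein of mitotic chromosomes, the topoisomerase that untangles DNA, and survivin, a subunit of the chromosomal passenger complex. They mark cells from replication to division and miss cells early in the first gap phase.

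The T cell part of the label was checked with genes that the rule had not used. Over 12 such genes, among them Trac and Trbc2 (T cell receptor constant regions), Lck (the kinase of the receptor) and Thy1, cycling CD8 T cells summed to 3618 against 4186 CPM in the MWA library and 4230.0 against 4568 CPM in the MWA plus TIGIT library, where the second value is that of other CD8 T cells. CPM are UMIs of a gene per 1000000 UMIs of the class of cells. Cycling macrophages held 26.7 and 18.5 CPM of the same genes, and cycling CD4 T cells 3751 and 4058 CPM, so the 12 genes mark T cells and do not separate CD8 from CD4 T cells. CD8 itself was a condition of the rule, and its values only describe the cells. Both chains of CD8 had a UMI in 236 of 278 (84.9%, 80.1 to 88.9) of the cycling cells in the MWA library and in 265 of 285 (92.98%, 89.4 to 95.7) in the MWA plus TIGIT library. Cd8b1 stood at 665 and 809 CPM and Cd8a at 467 and 535 CPM.

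Under a rule that asks for UMIs and so favors deep barcodes, cycling CD8 T cells had more UMIs and genes than the others. Their median was 7574.5 UMIs and 2117.5 genes in the MWA library and 7310 UMIs and 2252 genes in the MWA plus TIGIT library, whereas other CD8 T cells had 4000 and 3769 UMIs and 1280 and 1319.5 genes. They summed to 2241216 and 2355810 UMIs in all. Doublets, barcodes holding 2 cells, were called in 27 (9.71%) and 19 (6.67%) of them, against 2.84% and 2.45% of other CD8 T cells. The 2 libraries shared 34 kept barcodes, 1 of them among the cycling CD8 T cells of the MWA library and 0 among those of the other. Macrophage markers, 13 genes, summed to 1609 and 1514 CPM in them, 1963 and 2124 CPM in other CD8 T cells and 51424 and 57625 CPM in cycling macrophages. Of the cells that met the CD3, CD8 and cycling conditions, the C1q limit left out 60 of 356 (16.9%, 13.1 to 21.2) and 44 of 349 (12.6%, 9.31 to 16.6), and a Cd4 UMI left out 18 of 356 (5.06%, 3.02 to 7.87) and 20 of 349 (5.73%, 3.54 to 8.71).

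The first question is whether a different share of CD8 T cells was cycling after TIGIT blockade was added. In the MWA library 278 of 1685 (16.5%, 14.8 to 18.4) CD8 T cells were cycling, and in the MWA plus TIGIT library 285 of 1839 (15.5%, 13.9 to 17.2), a difference of −1.001 percentage points (−3.47 to 1.46). The interval holds 0, so no difference was detectable at these cell numbers, and differences down to −3.47 or up to 1.46 points remain within the counting error. Since the rule asks for 2 UMIs, the share moves with depth. With each cell thinned to 1000 UMIs and the whole rule applied again, 51 of 945 (5.40%, 4.04 to 7.04) and 77 of 1168 (6.59%, 5.24 to 8.17) were cycling, a difference of 1.20 percentage points (−0.93 to 3.27), with the sign turned and the interval again holding 0. This thinning left 945 and 1168 cells in the gate, since the CD3 and CD8 conditions also ask for UMIs. The rule's last condition was met by 0 of 59 and 0 of 63 neutrophils, cells that have left the cycle, at median depths of 1030 and 1238 UMIs. With 3 cells as the limit that a count of 0 allows, these shares are up to 5.08% and 4.76%. Dendritic cells with Fscn1 and Ccl22, which are mature and do not divide, met it in 0 of 22, which allows up to 13.6%, and 1 of 26 (3.85%, 0.0973 to 19.6) cells at 5625 and 6822.5 UMIs. At 1000 UMIs per cell the condition was met by 0 of 32, which allows up to 9.38%, and 1 of 37 (2.70%, 0.0684 to 14.2) of the neutrophils deep enough. The numbers of these control cells are too small to place the background below the thinned shares.

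CD4 T cells and macrophages of the same tumors were scored the same way. Among CD4 T cells 65 of 751 (8.66%, 6.74 to 10.9) and 92 of 761 (12.1%, 9.86 to 14.6) were cycling, a difference of 3.43 percentage points (0.27 to 6.61), which became 0.99 percentage points (−0.93 to 2.94) when the rule genes were read from 1000 UMIs per cell. Among macrophages 659 of 3808 (17.3%, 16.1 to 18.5) and 763 of 4241 (17.99%, 16.8 to 19.2) were cycling. With the rule genes thinned in the same way, the shares were 6.40% and 6.79% of CD8 T cells, 2.83% and 3.82% of CD4 T cells and 4.67% and 4.90% of macrophages. The exact intervals of CD8 and CD4 T cells did not overlap in either library. With the whole rule thinned, macrophages had 4.94% (4.22 to 5.75) and 5.58% (4.84 to 6.39), which overlap with the CD8 T cells of the same library, and the difference in CD4 T cells was −0.45 percentage points (−3.17 to 2.15).

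The genes of the rule were seen together in most of the selected cells. Mki67 (chromosome 7, GRCm38, 135689784 to 135716361) had a UMI in 76.98% and 82.1% of them, Top2a (chromosome 11, 98992943 to 99024189) in 88.8% and 85.3% and Birc5 (chromosome 11, 117849251 to 117855743) in 72.3% and 67.7%. All 3 genes were present in 57.2% and 55.4%. A cycling cell of the MWA library held between 2 and 63 UMIs of these genes with a median of 7, and one of the MWA plus TIGIT library between 2 and 86 with a median of 9. Around the threshold, 168 and 192 cells held 1 such UMI and stayed outside, and 62 and 55 cells held 2 and were taken in.

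Cells just inside and just outside differed by degree. Genes of DNA replication, 35 in number, summed to 1515 and 1554 CPM in cells with 1 rule UMI and to 2189 and 2547 CPM in cells with 2, and 48 genes of mitosis to 749 and 722 against 1226 and 1196 CPM. In cells with 20 or more, mitosis genes reached 8289 and 10351 CPM and replication genes 3622 and 3859 CPM. Replication-dependent histones went from 458 and 384 CPM in cells with no rule UMI to 13979 and 10788 CPM. Ccl5, a chemokine of effector and memory CD8 T cells, had 6666 and 10276 CPM in cells with no rule UMI and 1617 and 1953 CPM in those with 20 or more.

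**Figure D1:**
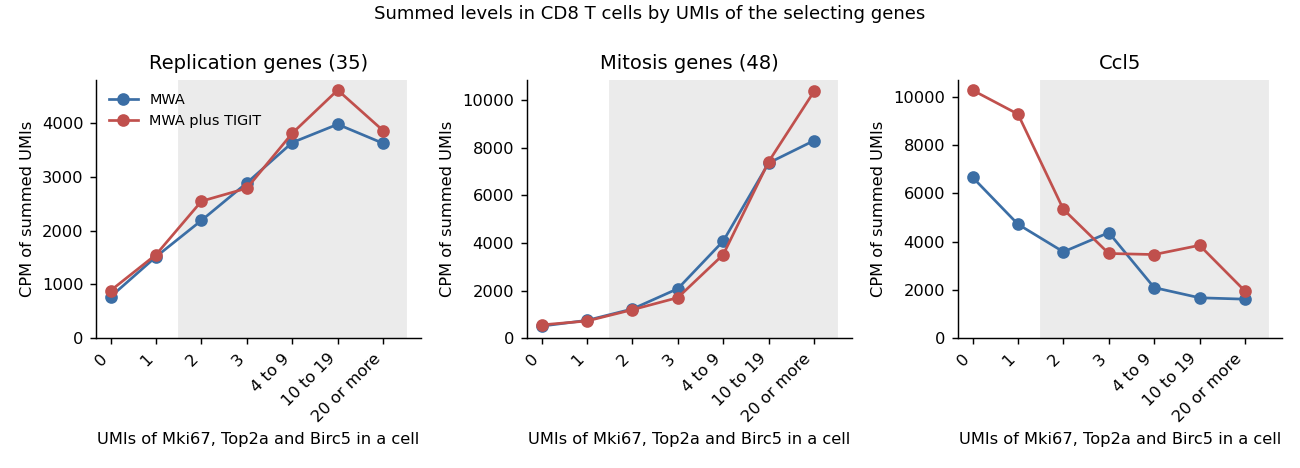
Summed levels, in CPM, of 35 replication genes, 48 mitosis genes and Ccl5 in CD8 T cells grouped by the UMIs of Mki67, Top2a and Birc5 in a cell, with 1 line per library and the selected range shaded. Replication genes are highest at 10 to 19 UMIs (3976 and 4612 CPM), mitosis genes climb to 8289 and 10351 CPM, and Ccl5 declines over the range in both libraries.

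The next question is what else sets cycling CD8 T cells apart from other CD8 T cells. Nearly every gene of replication, histone supply and chromosome segregation that was listed was higher in them, D-type cyclins were not, Ccl5 and Il7r were lower, and 0 of 13 exhaustion genes were past 2-fold. This difference follows from the selection, so the values are a description and carry no test. Ratios are log2 ratios of CPM, cycling over other CD8 T cells, first in the MWA and then in the MWA plus TIGIT library, and a gene was counted as higher or lower where it was past 2-fold in the same direction in both libraries. Of 9705 genes with at least 20 UMIs in each library, 569 (5.86%) were higher and 86 (0.886%) lower, and the median of all was 0.04 and 0.05. Levels of a gene are given as cycling against other CD8 T cells, in the same order of libraries, and the genes are taken in the order of the cell cycle.

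Of the pre-replication complex and its loading factors, 13 of 15 genes were higher, with a median of 1.71 and 1.76. Mcm6, a subunit of the helicase that opens the origins, was at 149.9 against 72.97 CPM and 155 against 71.1 CPM. Mcm7, another of its subunits, was at 108 against 32.9 CPM and 135 against 38.6 CPM. Cdc6, which loads the helicase, was at 29.00 against 3.87 CPM and 35.2 against 4.75 CPM. Gmnn, encoding the inhibitor of repeated licensing, was at 141 against 36.3 CPM and 155 against 39.96 CPM. Mcm2 and Cdt1, the remaining 2, had ratios of 1.039 and 0.81 and of 1.02 and 0.74, past 2-fold in the MWA library only.

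DNA synthesis and nucleotide supply had 18 of 20 genes higher, with a median of 2.15 and 2.12. Pcna, the sliding clamp of the polymerases, was at 278 against 80.1 CPM and 283 against 90.6 CPM. Dut, which removes dUTP, was at 517 against 142 CPM and 509 against 135 CPM. Tyms, which makes thymidylate, was at 200.3 against 20.99 CPM and 193 against 21.7 CPM. Both belong to the supply of thymidine nucleotides. Rrm2, the regulated subunit of ribonucleotide reductase, had the highest ratios of the list, 5.37 and 5.56, from 3.71 and 3.56 CPM in other CD8 T cells to 153 and 169 CPM.

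All 13 replication-dependent histones compared were higher, with a median of 4.43 and 4.45. Hist1h1b, a linker histone, was at 871 against 17.8 CPM and 704 against 29.1 CPM. Hist1h2ap, an H2A gene, was at 3962 against 184 CPM and 1996 against 76.6 CPM. Hist1h2ae, also an H2A gene, was at 1357 against 48.8 CPM and 1302 against 37.9 CPM. Histone genes have near-identical copies among which reads can be split or dropped, and most of their mRNAs end in a stem-loop and not in the poly(A) tail that the libraries capture, so these levels are uncertain. Of the histone variants and chaperones 7 of 9 were higher. Hmgb2, a chromatin protein of proliferating lymphocytes, had the highest level, 2453 against 406 CPM and 3103 against 528 CPM, whereas the replication-independent H3f3a and H3f3b had ratios between 0.17 and 0.45.

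Cyclins and cyclin-dependent kinases divided by phase. Higher were 13 of 18, among them Ccne1 and Ccne2, the cyclins of the start of replication. Ccna2, the cyclin of replication and its aftermath, was at 95.5 against 1.13 CPM and 112 against 0.297 CPM. Ccnb2, a cyclin of mitosis, was at 108 against 3.07 CPM and 152 against 2.67 CPM. Cdk1, the kinase of both, was at 95.9 against 4.52 CPM and 109 against 4.46 CPM. The other 5 were the D-type cyclins and their kinases. Ccnd2, the D-type cyclin with the most UMIs, was at 168 against 259.6 CPM and 178 against 358 CPM. Ccnd3 had ratios of 0.10 and −0.095, Cdk6 of 0.0019 and 0.028 and Cdk4 of 0.86 and 0.79. Cks1b and Cks2, small subunits of the kinases, had 3.51 and 3.81 and 1.75 and 2.04.

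Among inhibitors and brakes of the cycle, 6 of 12 were higher. They included Cdkn1a, encoding p21, at 83.4 against 25.02 CPM and 70.9 against 23.3 CPM. Cdkn3, a phosphatase that acts on cyclin-dependent kinases, was at 70.5 against 2.10 CPM and 85.7 against 3.42 CPM. Cdkn1b, encoding p27, was not among them, with ratios of −0.64 and −0.37. Btg1 and Klf2, genes of resting T cells, had ratios of −0.54 and −0.64 and of −0.82 and −0.76, below 0 and short of 2-fold. Of the E2F and mitotic transcription factors 9 of 10 were higher, with Foxm1, which drives mitotic genes, at 35.2 against 0.484 CPM and 34.4 against 1.34 CPM. The repressor E2f8 had ratios of 4.64 (3.51 to 6.01) and 6.44 (4.84 to 8.74), wide because other CD8 T cells held 7 and 3 UMIs of it. Myc, the exception, had −0.21 and 0.014, from 25.3 to 21.9 and from 17.2 to 17.4 CPM.

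Genes of chromosome segregation were higher throughout. All 13 centromere and kinetochore genes, all 19 spindle, kinesin and cytokinesis genes and all 12 mitotic kinase and checkpoint genes were higher, with list medians of 4.76 and 4.60, of 4.31 and 4.57 and of 4.88 and 5.49. Cenpf, an outer kinetochore protein of late cycle, was at 144 against 1.78 CPM and 219 against 2.08 CPM. Tubb5, a tubulin of the spindle and of the resting cytoskeleton, was at 1423 against 232 CPM and 1516 against 248 CPM. Stmn1, which destabilises microtubules, was at 970.0 against 63.1 CPM and 1092 against 66.5 CPM. These 2 belong to the genes with the most UMIs of the spindle list, with Tuba1b at 1165 against 151 CPM and 1151 against 171 CPM. Aurkb, the kinase that works with survivin, was at 46.4 against 0.807 CPM and 59.00 against 1.49 CPM. Condensins and chromosome structure had 10 of 11 genes higher, the exception being Top2b, the topoisomerase of non-dividing cells, at −0.23 and 0.16.

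Of the anaphase-promoting complex and mitotic exit, 6 of 7 genes were higher. Ube2c, its ubiquitin-conjugating enzyme, was at 283 against 9.20 CPM and 399 against 9.51 CPM. Cdc20, its activator, was at 23.2 against 0.969 CPM and 54.3 against 1.93 CPM. Pttg1, the securin that this complex destroys, was the exception, at 47.3 against 66.8 CPM and 61.5 against 75.8 CPM. DNA repair and checkpoint had 10 of 12 higher, with Atad2, a chromatin ATPase, at 299.8 against 99.6 CPM and 264 against 111 CPM, and with Trp53 and Mdm2 short of 2-fold.

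Because these genes were high together, their promoters are shown for 3 of them, with RefSeq windows of GRCm38.p6 that run 5′ to 3′ from 250 bases before to 50 bases after the start of transcription. Capitals mark matches, on either strand, to the CCAAT box (CCAAT), the CHR (TTTGAA or TTTAAA) and E2F motifs (TTTGGCGC, TTTCCCGC, TTTCGCGC or TTTGCCGC). Ccnb2 (chr9:70421505-70421804, minus strand) and Cdc20 (chr4:118437294-118437593, minus strand) are mitosis genes, and Mcm5 (chr8:75109259-75109558, plus strand) is a replication gene whose 2 E2F matches overlap on opposite strands.
Ccnb2: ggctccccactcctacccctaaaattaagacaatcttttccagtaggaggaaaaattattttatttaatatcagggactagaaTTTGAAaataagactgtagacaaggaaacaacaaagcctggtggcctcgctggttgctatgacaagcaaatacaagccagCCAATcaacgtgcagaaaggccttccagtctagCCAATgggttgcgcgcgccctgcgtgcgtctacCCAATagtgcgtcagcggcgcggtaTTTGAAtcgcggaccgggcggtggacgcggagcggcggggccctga
Cdc20: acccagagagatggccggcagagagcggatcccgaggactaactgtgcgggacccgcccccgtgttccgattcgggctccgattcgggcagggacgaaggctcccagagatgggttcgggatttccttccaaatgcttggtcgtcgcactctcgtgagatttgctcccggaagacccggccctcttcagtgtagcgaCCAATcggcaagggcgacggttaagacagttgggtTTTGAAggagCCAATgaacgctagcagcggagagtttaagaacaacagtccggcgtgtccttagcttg
Mcm5: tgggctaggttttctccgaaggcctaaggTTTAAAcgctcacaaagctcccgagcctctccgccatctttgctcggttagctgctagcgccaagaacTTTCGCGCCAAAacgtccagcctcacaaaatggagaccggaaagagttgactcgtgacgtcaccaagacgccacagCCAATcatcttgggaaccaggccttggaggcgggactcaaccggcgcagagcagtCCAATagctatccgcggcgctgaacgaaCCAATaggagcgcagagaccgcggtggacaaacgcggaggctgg

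The Ccnb2 window holds 3 CCAAT boxes and 2 CHR matches, the Cdc20 window 2 and 1, and the Mcm5 window 2 E2F matches, 3 CCAAT boxes and 1 CHR match. Of the 47 higher mitosis genes 40 were matched to a window by symbol, with 43 windows, of which 74.4% held a CHR match, 69.8% a CCAAT box, 58.1% both and 4.65% an E2F match. Of the 31 higher replication genes 25 were found, with 30 windows, of which 6 held a CHR match, 56.7% a CCAAT box, 13.3% both and 36.7% an E2F match. Over all 32851 windows these shares were 27.6%, 37.4%, 10.7% and 2.26%. A match is a run of letters and no measured binding site, and no test of these shares was made.

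Few genes of T cell state were past 2-fold, to be read beside 5.86% of all genes higher and 0.886% lower. Of 13 genes of exhausted CD8 T cells 0 were past 2-fold, with a median of −0.24 and 0.042. A count of 0 in a list of this size is near the share of all genes. Pdcd1, encoding PD-1, was at 62.5 against 70.9 CPM and 90.8 against 65.4 CPM. Lag3, an inhibitory receptor, was at 42.4 against 61.99 CPM and 58.6 against 56.9 CPM. Havcr2, encoding TIM-3, was at 22.8 against 27.9 CPM and 27.2 against 29.7 CPM. Tigit, the target of the antibody, was low throughout, at 4.91 against 5.81 CPM and 3.82 against 7.43 CPM. The 17 effector genes summed to 5294 against 10722 CPM and 7233 against 15592 CPM, with a median of −0.31 and −0.39. Of these genes, Ccl5 was lower, at 2280.5 against 6367 CPM and 3303 against 10133 CPM, and made up most of the difference of the sums. Gzmc, encoding granzyme C, was higher, at 103 against 50.2 CPM and 38.2 against 7.87 CPM, of whose UMIs 1 cell held 45.9% in the MWA library and 72.2% in the MWA plus TIGIT library. Gzmb, encoding granzyme B, had ratios of −0.27 and −0.26. Nkg7, a protein of cytotoxic granules, had ratios of −0.50 and −0.39. Gzma was at 240.5 against 747 CPM and 498 against 810.1 CPM, past 2-fold in the MWA library only.

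Stem-like and naive-like genes had 1 of 11 lower, Il7r, the interleukin-7 receptor, at 53.1 against 119.9 CPM and 57.7 against 127 CPM. Tcf7 and Lef1, transcription factors of stem-like T cells, had ratios of −0.54 and −0.44 and of −0.82 and −0.73. Of all genes, 5.86% were higher and 0.886% lower, and counts of 0 in short lists are near these shares. No member of the interferon-induced (11 genes), trafficking (12), costimulation (13), glycolysis (16) or oxidative phosphorylation (18) lists was past 2-fold in both libraries. The last 2 leaned upward, with medians of 0.25 and 0.28 and of 0.28 and 0.25, and Gapdh, the glycolytic gene with the most UMIs, was at 2569.6 against 1805 CPM and 2765 against 1877 CPM.

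**Figure D2:**
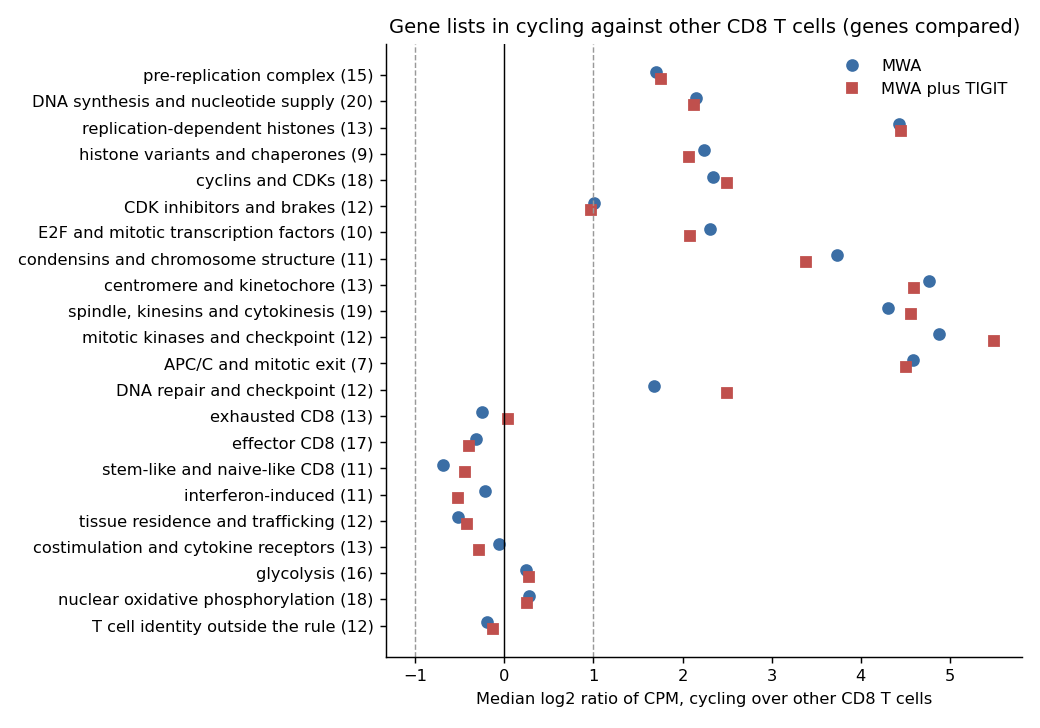
Median log2 ratio of CPM, cycling over other CD8 T cells, for each gene list (number of genes compared in brackets), with circles for the MWA and squares for the MWA plus TIGIT library and dashed lines at 2-fold. The lists of the cell cycle lie between 0.97 and 5.49, and the lists of T cell state and metabolism between −0.68 and 0.28, in both libraries.

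Outside the lists, the highest ratios among genes with at least 50 CPM belonged to 6 further histone genes, to Mxd3 and to Pclaf. Pclaf, whose protein binds PCNA at the fork, was at 734 against 14.2 CPM and 771 against 20.2 CPM. Mxd3, a partner of MAX that is made during replication, was at 54.9 against 0.323 CPM and 53.5 against 0.446 CPM. The lowest included Hopx, a gene of differentiated effector cells, at 102 against 208 CPM and 110.4 against 261 CPM. Mxd4, a MAX partner of resting cells, was at 37.03 against 66.7 CPM and 32.3 against 73.1 CPM, and lost its direction among cells with at most 5000 UMIs. Samhd1, which breaks down nucleotides, was at 54.4 against 94.9 CPM and 62.8 against 133 CPM. Mxd3 and Mxd4, members of 1 family, thus lay at opposite ends.

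Among themselves the cells were spread over the cycle. For each cell with at least 5 UMIs over the 35 replication and 48 mitosis genes, none of them a gene of the rule, the mitosis genes' share of these UMIs was taken as its position. This is a range and no call of a phase. The median was 55.9% over 264 cells of the MWA library (quartiles 38.9 and 72.3) and 57.1% over 274 cells of the MWA plus TIGIT library (quartiles 36.2 and 77.6). More than 75% was found in 54 cells (20.5%, 15.8 to 25.8) and in 73 (26.6%, 21.5 to 32.3), and less than 25% in 21 (7.95%, 4.99 to 11.9) and 26 (9.49%, 6.29 to 13.6). The intervals overlap. Cycling CD4 T cells had medians of 52.8% and 53.8%, and cycling macrophages 75.3% and 70.2%.

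Single genes followed this order. Over shares under 25%, 25 to 50%, 50 to 75% and 75% or more, Mcm5 was at 128, 121, 89.1 and 50.7 CPM in the MWA library and 169, 164, 112 and 42.4 CPM in the MWA plus TIGIT library. Pcna and Rrm2, which act at the fork, peaked in the middle, with Rrm2 at 16.1, 133, 224 and 94.1 CPM in the MWA library and 25.96, 124, 291 and 104 CPM in the MWA plus TIGIT library. Hist1h1b was highest at 50 to 75%, at 64.2, 448, 1287 and 939 CPM in the MWA library and 47.6, 277, 1124 and 884 CPM in the MWA plus TIGIT library. Ube2c was at 21.4, 20.4, 230.2 and 939 CPM in the MWA library and 0, 16.4, 257 and 1253 CPM in the MWA plus TIGIT library, and Cdc20, which acts at the start of anaphase, at 0, 0, 13.01 and 94.1 CPM in the MWA library and 4.33, 7.44, 22.3 and 182 CPM in the MWA plus TIGIT library. Mcm5 was thus highest at low shares, Rrm2 and Hist1h1b at 50 to 75% and Ube2c and Cdc20 at 75% or more. Apart from Hist1h1b these genes belong to the lists that define the share, which favors that order. Gzmb, which does not, was at 845, 305, 312 and 289.6 CPM in the MWA library and 480.2, 650.5, 617 and 527 CPM in the MWA plus TIGIT library.

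**Figure D3:**
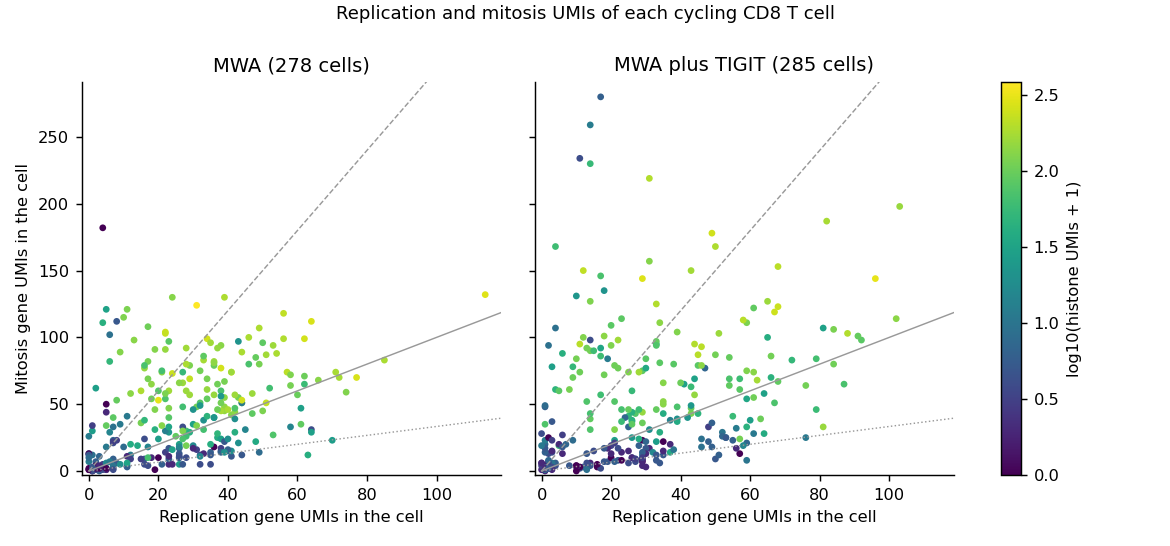
UMIs of 35 replication genes (x axis) and 48 mitosis genes (y axis) in each cycling CD8 T cell, 278 of the MWA and 285 of the MWA plus TIGIT library, colored by the UMIs of replication-dependent histones on a log10 scale. The solid line marks a mitosis share of 50%, the dashed line 75% and the dotted line 25%. The cells richest in histone UMIs lie between the solid and dashed lines and just above, and the highest mitosis count is 182 in the MWA and 280 in the MWA plus TIGIT library.

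Between the libraries, both sets were higher in the MWA plus TIGIT library, replication genes by 0.13 (0.085 to 0.17) and mitosis genes by 0.24 (0.20 to 0.27) on the log2 scale, against a median over all genes of 0.12 between these libraries. The value of the replication genes is thus about that of all genes, and the ratio of mitosis to replication UMIs was higher by 0.11 (0.051 to 0.16). With fewer than 2 UMIs of C1q genes allowed per cell, this last difference was −0.0100 (−0.095 to 0.075).

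The remaining comparison is between the libraries, gene by gene, within cycling CD8 T cells. It asks which genes these cells carried at other levels after TIGIT blockade. Levels of the cytotoxic genes Gzmb, Gzmk, Gzma and Prf1 and of the chemokine receptors Ccr2 and Cxcr3 were more than 1.5-fold higher in the MWA plus TIGIT library, those of the interferon-induced Cxcl10, Isg15 and Ifit1 more than 1.5-fold lower, and most genes of replication and mitosis about equal. Granzyme B, granzyme K and the receptors were higher in other CD8 T cells too, whereas the interferon-induced genes and granzyme A differed between the classes in ways given below. Ratios are now log2 ratios of CPM, MWA plus TIGIT over MWA, and a gene counts as higher or lower past 1.5-fold. Of 8892 genes with at least 20 UMIs, 877 (9.86%) were higher and 402 (4.52%) lower, and the counting interval lay on 1 side of 0 for 441 (50.3%) and 130 (32.3%) of these. The median over all genes was 0.12, in cycling and in other CD8 T cells alike. Scaling by TMM factors (trimmed mean of M values) lowered every ratio by 0.12, to a median of 0.0030, and gave 589 higher and 584 lower genes. A ratio of about 0.12 therefore equals the shift of all genes. Ratios given below for cells with at most 5000 UMIs leave out 229 of the 278 and 228 of the 285 cells. They carry no interval and were taken without the limit of 20 UMIs, so they only describe the cells left.

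Genes of replication lay close to that shift. The pre-replication complex had 0 of 15 genes past 1.5-fold and a median of 0.20. DNA synthesis had 1 of 20, Pold1 at 0.69 (0.27 to 1.12), and a median of 0.14, and with TMM factors 0 of 20. Of all genes 9.86% were higher. Pcna was at 278 CPM in the MWA and 283 CPM in the MWA plus TIGIT library. Of the histones Hist1h2ap was lower, at 3962 CPM in the MWA and 1996 CPM in the other library, a ratio of −0.99 (−1.041 to −0.94), and −1.26 in other CD8 T cells. Without it the histones of the list ranged from −0.31 for Hist1h1b to 0.17 for Hist1h2ak.

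Of the mitosis lists single genes were past 1.5-fold, in shares near that of all genes. Cdc25b, the phosphatase that starts mitosis, went from 18.7 to 48.4 CPM, a ratio of 1.37 (0.85 to 1.92). Cdc20 went from 23.2 to 54.3 CPM, a ratio of 1.23 (0.75 to 1.72). Past 1.5-fold were also the mitotic kinesins Kif20a at 0.996 (0.36 to 1.66) and Kif22 at 0.79 (0.33 to 1.25), the kinetochore genes Cenpe at 0.73 (0.45 to 1.002) and Cenpf at 0.61 (0.40 to 0.81), the cytokinesis factor Ect2 at 0.84 (0.29 to 1.41) and the cyclin Ccnf at 0.69 (0.094 to 1.30). By list these are 2 of 13 centromere genes, 2 of 19 spindle genes, 1 of 7 genes of the anaphase-promoting complex, 1 of 11 condensin genes and 2 of 18 cyclin genes, against 9.86% of all genes. With TMM factors 1 of 13 centromere and 1 of 18 cyclin genes were higher, and the other counts stayed. With cells of fewer than 2 C1q UMIs only, Cdc20 had a ratio of 0.50, Kif20a of 0.58 and Cenpf of 0.33, short of 1.5-fold, and Cdc25b of 1.15. Among cells with at most 5000 UMIs, Cdc20 was at −0.078. Cdc20 had a UMI in 13.7% and 22.1% of the cells, and 1.80% (0.587 to 4.15) and 4.93% (2.72 to 8.13) at 1000 UMIs per cell. Cdc25b had one in 11.5% and 21.1%, but in 3.24% (1.49 to 6.06) and 2.46% (0.997 to 5.01) at 1000 UMIs per cell. Kif20a had 1.80% (0.587 to 4.15) and 2.46% (0.997 to 5.01) at that depth. For each of these genes the thinned intervals of the libraries overlap.

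DNA repair had Brca2 at 0.60 (0.15 to 1.07) and Chek2 at 0.68 (−0.26 to 1.67) higher and Fancd2 at −0.66 (−1.51 to 0.16) lower, the last 2 with intervals that hold 0. These are 2 higher and 1 lower of 12 genes, against 9.86% and 4.52% of all genes. With TMM factors 0 of the 12 were higher and 1 lower. Cdkn2d, encoding the inhibitor p19, was at 0.67 (0.39 to 0.96), and 0 of 12 mitotic kinase genes and 0 of 10 transcription factors were past 1.5-fold. With TMM factors 0 of the 12 inhibitors and brakes were higher and 1 lower.

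Several cytotoxic genes were higher in the MWA plus TIGIT library. Gzmb was at 351 CPM in the MWA and 587 CPM in the MWA plus TIGIT library, a ratio of 0.74 (0.61 to 0.87), and other CD8 T cells had 0.74 (0.67 to 0.81). Gzmk, a granzyme of memory-like cells, went from 67.8 to 131 CPM, a ratio of 0.95 (0.66 to 1.24), with 1.01 (0.86 to 1.16) in other CD8 T cells. For both genes the intervals of cycling and other CD8 T cells overlap. Prf1, encoding perforin, went from 36.6 to 65.8 CPM, a ratio of 0.85 (0.45 to 1.25), against 0.39 (0.20 to 0.59). With fewer than 2 C1q UMIs allowed Prf1 was at 0.43, and among cells with at most 5000 UMIs at −0.064.

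Gzma, encoding granzyme A, was different in that its ratio was 1.05 (0.90 to 1.20) in cycling and 0.12 (0.060 to 0.17) in other CD8 T cells, from 240.5 to 498 CPM and from 747 to 810.1 CPM. These 2 intervals do not overlap, but with 1 library per group the difference between them was not tested. Gzma UMIs were concentrated in 42 and 73 cells, and 1 cell held 15.03% of them in the MWA and 26.1% in the MWA plus TIGIT library. Without that cell in each library the ratio was 0.85, and among cells with at most 5000 UMIs it was −0.074. A Gzma UMI was found in 15.1% and 25.6% of the cells, and 7.19% (4.45 to 10.9) and 12.7% (9.04 to 17.1) at 1000 UMIs per cell. Macrophages, which do not make it, held one in 0.686% and 0.333% at the same 1000 UMIs, from median depths of 8595.5 and 10544 UMIs.

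Of 17 effector genes, 4 were higher and 2 lower, against 9.86% and 4.52% of all genes. Their median was 0.12 (−0.0036 with TMM factors), and 0.32 in other CD8 T cells. Gzmc was lower at −1.43 (−1.80 to −1.07), but at −0.19 when cells with Trav16 UMIs were dropped, at −0.25 as a mean over cells and at 1.10 with fewer than 2 C1q UMIs allowed. Zeb2, a transcription factor of terminal effector cells, was lower at −0.71 (−1.22 to −0.21), and at 0.000156 with that C1q limit. Ccl5 was at 0.53 (0.48 to 0.59) and Nkg7 at 0.43 (0.36 to 0.49), short of 1.5-fold with intervals above 0. The cytokine Ifng was at −0.21 (−0.42 to 0.00013) and Tnf at 0.0082 (−0.39 to 0.41), and both intervals hold 0.

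Some receptors that guide T cells were higher as well. Ccr2 went from 50.4 to 101.5 CPM, a ratio of 1.01 (0.68 to 1.34), with 1.34 (1.18 to 1.51) in other CD8 T cells. Cxcr3, the receptor of Cxcl9 and Cxcl10, went from 42.8 to 76.4 CPM, a ratio of 0.83 (0.47 to 1.21), with 0.72 (0.54 to 0.90). S1pr1, the receptor for exit from tissue, was at 0.83 (0.33 to 1.34). Of 12 trafficking genes 4 were past 1.5-fold upward, against 9.86% of all genes, and 0 downward, and the list's median was 0.43 (0.31 with TMM factors) against 0.23 in other CD8 T cells. Cxcr6 at 0.55 (0.33 to 0.76) and Ly6c2 at 0.48 (0.39 to 0.57) stayed short of it. Cxcr3 was detected in 25.5% and 40.4% of the cells, and 1.80% (0.587 to 4.15) and 10.9% (7.54 to 15.1) at 1000 UMIs per cell, against 0.105% and 0.190% of macrophages. Ccr2 was seen at that depth in 5.40% (3.05 to 8.74) of MWA and 6.69% (4.08 to 10.3) of MWA plus TIGIT cycling cells. The counting error of each covers the value of the other. In other CD8 T cells it was seen in 6.75% (5.49 to 8.19) and 15.5% (13.7 to 17.4). Macrophages held a Ccr2 UMI more often, in 21.9% and 21.5% at 1000 UMIs. How much macrophage RNA adds to the Ccr2 values was not tested.

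Genes of exhaustion had 1 of 13 past 1.5-fold, upward, against 9.86% of all genes. It was Cd101 at 0.64 (−0.38 to 1.72), with few UMIs and an interval that holds 0. With TMM factors 0 of the 13 were higher and 1 lower. The list's median was 0.23 in cycling and −0.12 in other CD8 T cells. Pdcd1 was at 62.5 CPM in the MWA and 90.8 CPM in the MWA plus TIGIT library, a ratio of 0.54 (0.23 to 0.86), and at 70.9 and 65.4 CPM in other CD8 T cells, a ratio of −0.12 (−0.31 to 0.077). Lag3 had 0.47 (0.079 to 0.86) in cycling and −0.12 (−0.33 to 0.084) in other CD8 T cells. A Pdcd1 UMI was found in 22.7% and 30.9% of the cells, and 5.04% (2.78 to 8.31) and 9.15% (6.07 to 13.1) at 1000 UMIs per cell, against 0.0264% and 0.0476% of macrophages. Both genes were therefore on the upper side in cycling cells and near 0 in the others, a difference that was not tested, and the thinned shares overlap.

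Of 11 interferon-induced genes, 3 were lower in cycling cells and had ratios above 0 in other CD8 T cells. Isg15, a ubiquitin-like protein, was at 124 CPM in the MWA and 75.98 CPM in the MWA plus TIGIT library, a ratio of −0.71 (−0.99 to −0.44), and other CD8 T cells had 0.23 (0.083 to 0.37). Ifit1, which binds foreign RNA, was at −0.92 (−1.61 to −0.25) against 0.43 (0.16 to 0.70). Rsad2, encoding viperin, was at −0.63 (−1.28 to 0.0078) against 0.49 (0.096 to 0.88). Against 4.52% of all genes, 3 of 11 were thus lower, and 0 were higher, and the list's median was −0.28 in cycling and 0.31 in other CD8 T cells (−0.40 in cycling cells with TMM factors). Genes of the list with many UMIs were Ifi27l2a at −0.088 (−0.16 to −0.012), Ly6a at 0.11 (−0.042 to 0.26) and Bst2 at −0.0046 (−0.19 to 0.18). Among cells with at most 5000 UMIs, in which 9 genes could be compared, the median was 0.28 and Isg15 was at 0.35. More than 5000 UMIs were held by 229 of the 278 and 228 of the 285 cells. With fewer than 2 C1q UMIs allowed Rsad2 was at −0.10. An Isg15 UMI was found in 28.4% and 26.3% of the cells, and 9.35% (6.201 to 13.4) and 8.45% (5.49 to 12.3) at 1000 UMIs per cell, shares that do not differ beyond their intervals. Macrophages held one in 6.78% and 7.56% at the same 1000 UMIs.

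**Figure D4:**
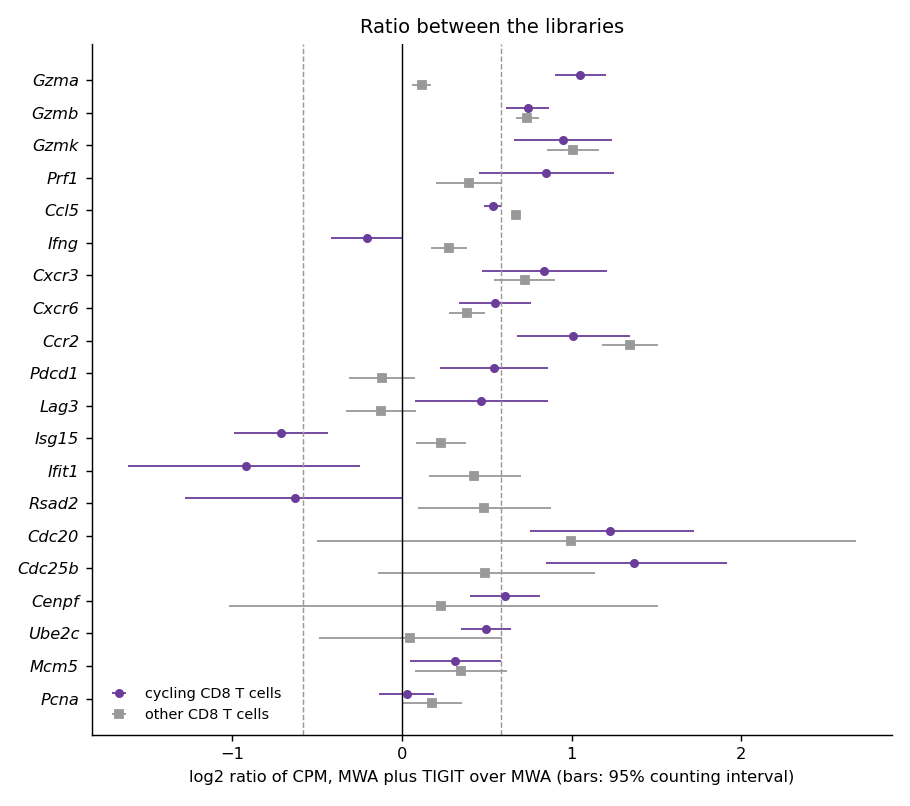
Log2 ratio of CPM, MWA plus TIGIT over MWA, for 20 genes of cytotoxicity, trafficking, exhaustion, interferon response and cell cycle, with violet circles for cycling and grey squares for other CD8 T cells, bars for 95% counting intervals and dashed lines at 1.5-fold. The values of Gzmb, Gzmk and Cxcr3 lie together in both classes, Gzma lies at 1.05 in cycling and 0.12 in other cells, and Isg15, Ifit1 and Rsad2 lie below 0 in cycling and above 0 in other cells.

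The other lists gave few differences, to be read beside 9.86% of all genes higher and 4.52% lower. Il18r1, a chain of the interleukin-18 receptor, was higher at 0.85 (0.49 to 1.21) and was the 1 of 13 costimulation and cytokine receptor genes past 1.5-fold, with 0.70 in other CD8 T cells. Of 11 stem-like and naive-like genes, S1pr1 and Bach2 were higher and Id3 lower, the latter 2 at 0.64 (−0.38 to 1.72) and −0.62 (−1.28 to 0.034). With TMM factors 1 of the 11 was higher and 1 lower. Glycolysis had 0 of 16 and oxidative phosphorylation 0 of 18 genes past 1.5-fold, with medians of 0.091 and −0.0051.

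The extremes over all genes with at least 50 CPM were taken as well. Among the highest, beside Cdc20, Gzma, Ccr2 and Gzmk, were the chemokine Ccl1 at 1.26 (0.88 to 1.64), Acp5 at 0.95 (0.66 to 1.24), the chaperone Hsph1 at 0.91 (0.49 to 1.33), Abhd2 at 0.90 (0.45 to 1.37) and Clec2d at 0.88 (0.58 to 1.20). For Ccl1 1 cell held 51.2% of the UMIs in the MWA and 50.5% in the MWA plus TIGIT library, and for Acp5 1 cell held 48.4% in the latter, without which its ratio was 0.023. Lowest was Cxcl10, a chemokine that interferon induces, which went from 70.1 to 22.5 CPM, a ratio of −1.64 (−2.12 to −1.18), with −0.14 in other CD8 T cells and 0.78 among cycling cells with at most 5000 UMIs. It had a UMI in 43 and 30 of the cycling cells, and 1 cell held 14.6% and 17.0% of these UMIs. Then came Gzmc, Ifitm2 at −1.19 (−1.48 to −0.92), Gm43305 at −1.17 (−1.54 to −0.82), Gm10076 at −1.13 (−1.21 to −1.06), the stress gene Gadd45g, from 78.97 to 39.5 CPM, Hist1h2ap, Gstp1 at −0.97 (−1.25 to −0.69), the inhibitory receptor Lilrb4a at −0.86 (−1.30 to −0.43) and Isg15. Of the Gadd45g UMIs 1 cell held 34.5% in the MWA library, and its ratio was −0.45 with the top cell of each library left out, −0.40 with at least 3 UMIs of the rule genes and −0.43 with fewer than 2 C1q UMIs, all short of 1.5-fold. Gm10076 and Gstp1 had like ratios in other CD8 T cells, −1.17 and −1.036, as did Gm43305 at −1.09.

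T cell receptor segments give a further view of these cells, since the daughters of 1 cell share them. The libraries start at the 3′ end of the RNA and the V segment lies at the other end, so an alpha chain V segment (Trav) was seen in 104 of 278 cycling cells (37.4%) in the MWA and 154 of 285 (54.0%) in the MWA plus TIGIT library, and a beta chain V segment (Trbv) in 28.4% and 24.6%. More than 1 Trav segment was seen in 11 and 34 of these cells. In the MWA library Trav16n led, in 38 of 278 (13.7%, 9.86 to 18.3) of the cycling cells, against 84 of 1407 (5.97%, 4.79 to 7.34) of other CD8 T cells. Trav16 led in the MWA plus TIGIT library, in 92 of 285 (32.3%, 26.9 to 38.05) of the cycling and 357 of 1554 (22.97%, 20.9 to 25.1) of other CD8 T cells. In the respective opposite library these segments were found in 9 of 285 (3.16%, 1.45 to 5.91) and 8 of 278 (2.88%, 1.25 to 5.59) of the cycling cells.

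Trav16 and Trav16n are near-identical copies of 1 gene, between which reads can be misplaced. No cell held both, and any of the 3 copies was found in 48 of 278 (17.3%, 13.01 to 22.2) of the cycling cells in the MWA and 103 of 285 (36.1%, 30.6 to 42.01) in the MWA plus TIGIT library, against 121 of 1407 (8.60%, 7.19 to 10.2) and 411 of 1554 (26.4%, 24.3 to 28.7) of other CD8 T cells. Of the cycling cells with any Trav segment, Trav16n made up 36.5% in the MWA and Trav16 59.7% in the MWA plus TIGIT library. The second segment of the MWA plus TIGIT library was Trav9-2, in 28 of 285 (9.82%, 6.63 to 13.9), and among beta chains Trbv3 led in the MWA library with 18 of 278 (6.47%, 3.88 to 10.04) and Trbv5 in the MWA plus TIGIT library with 10 of 285 (3.51%, 1.70 to 6.36). A Trbv5 UMI was present in 21 of the 449 CD8 T cells with Trav16 and a Trbv19 UMI in 16, so 1 receptor for all of them could not be read from these libraries. With each cell thinned to 1000 UMIs, the shares of cycling cells with Trav16 were 0.360% and 9.51% and those with Trav16n 3.24% and 1.06%. Other CD8 T cells then had 0.718% and 9.66% with Trav16 and 2.15% and 0.973% with Trav16n, so that at equal depth cycling and other CD8 T cells of the MWA plus TIGIT library held Trav16 in about the same share. Macrophages, which carry no receptor, held a Trav16 UMI in 0% and 0.118% of cells at full depth and a Trav16n UMI in 0.0788% and 0%.

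A higher share of the CD8 T cells with a leading segment was cycling than of those without. In the MWA plus TIGIT library 92 of 449 (20.5%, 16.9 to 24.5) with and 193 of 1390 (13.9%, 12.1 to 15.8) without a Trav16 UMI were cycling, at medians of 3830 and 4269 UMIs. With the rule genes read from 1000 UMIs per cell these shares were 9.62% (7.05 to 12.7) and 5.87% (4.69 to 7.25). In the MWA library 38 of 122 (31.1%, 23.1 to 40.2) with and 240 of 1563 (15.4%, 13.6 to 17.2) without a Trav16n UMI were cycling, 16.4% (10.3 to 24.2) and 5.62% (4.52 to 6.88) with thinned rule genes. For Trav9-2 in the MWA plus TIGIT library the shares were 28 of 83 (33.7%, 23.7 to 44.9) and 257 of 1756 (14.6%, 13.01 to 16.4), and 18.1% (10.5 to 28.05) and 6.25% (5.16 to 7.49) with thinned rule genes. The full-depth intervals of cells with and without the segment do not overlap in any of the 3 cases, but with thinned rule genes those of Trav16 do, and no test was made. A cell with more UMIs has more chance of a V segment UMI and of meeting the rule, which the thinning of the rule genes removes only for the latter, and these segments were singled out for being frequent.

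**Figure D5:**
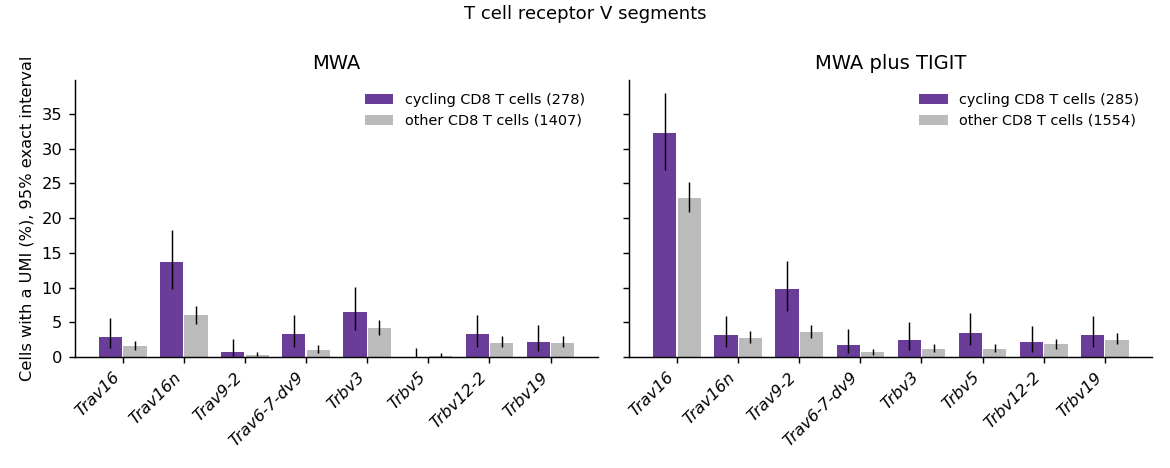
Share of cells with a UMI of 8 T cell receptor V segments, in percent, for cycling (violet) and other (grey) CD8 T cells of each library, with 95% exact binomial intervals. Trav16n is the highest bar of the MWA library at 13.7% of cycling cells, and Trav16 that of the MWA plus TIGIT library at 32.3%.

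Within the cycling cells of the MWA plus TIGIT library, the 92 with a Trav16 UMI carried other levels of T cell state genes than the 193 without. Effector genes summed to 12424 against 5511 CPM, a log2 ratio of 1.17 (1.13 to 1.22). Gzmb was at 1082 against 423 CPM, a log2 ratio of 1.36 (1.20 to 1.51), Gzmk at 278 against 81.96 CPM, a log2 ratio of 1.76 (1.43 to 2.09) and Ccr2 at 219.9 against 62.2 CPM, a log2 ratio of 1.82 (1.44 to 2.20). Ccl5, which made up most of the difference in the effector sum, was at 7064 against 2056 CPM, a log2 ratio of 1.78 (1.72 to 1.85). The exhaustion genes, in contrast, summed to 412 against 722 CPM, a log2 ratio of −0.81 (−1.01 to −0.61), and the interferon-induced genes to 2824 against 2002 CPM, a log2 ratio of 0.50 (0.41 to 0.58). Replication genes summed to 4184 against 3571 CPM, a log2 ratio of 0.23 (0.16 to 0.30), and mitosis genes to 7129 against 5948 CPM, a log2 ratio of 0.26 (0.21 to 0.31). Cells with and without the segment had medians of 6218 and 8217 UMIs. Other CD8 T cells of this library, 357 with and 1197 without a Trav16 UMI, differed the same way in these state genes. Their ratios were 0.63 for effector genes, 0.93 for Gzmb, 0.96 for Gzmk, 1.23 for Ccr2 and 0.74 for Ccl5. Exhaustion genes had −0.38, interferon-induced genes 0.62, replication genes 0.43 and mitosis genes 0.016 (−0.096 to 0.13).

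Some of the library ratios moved when cells with a Trav16 UMI were left out of both libraries. That of Gzmb became 0.33, that of Gzmk 0.27 and that of Ccr2 0.27, from 0.74, 0.95 and 1.01. Those of Gzma at 1.16, Prf1 at 0.89, Cxcr3 at 0.66, Isg15 at −0.93, Ifit1 at −1.02, Cdc20 at 1.34 and Cdc25b at 1.25 stayed past 1.5-fold in the same direction. This removed 8 of 278 cycling cells of the MWA and 92 of 285 of the MWA plus TIGIT library, and kept those with Trav16n. A Trav segment was seen in only 37.4% and 54.0% of the cycling cells, so cells whose Trav16 RNA was not captured may remain. Whether the mice of the 2 libraries differed in which clones had expanded before treatment cannot be told apart from the treatment, with 1 library per group.

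Markers of other cells were read beside these differences, in the cycling CD8 T cells of the MWA and then the MWA plus TIGIT library. The 13 macrophage genes summed to 1609 and 1514 CPM, with Fcer1g lower at −0.63 (−0.90 to −0.36) and Tyrobp higher at 0.62 (0.32 to 0.93). With TMM factors 0 of the 12 macrophage genes compared were higher and 3 lower. The 9 NK cell genes summed to 534 and 795 CPM, of which Gzma is 1, and the defining Ncr1 was at 1.34 and 0.849 CPM. The 8 neutrophil genes summed to 9.82 and 15.7 CPM, the 7 B cell genes to 51.8 and 91.7 CPM, the 8 tumor cell genes to 67.8 and 66.2 CPM, the 8 dendritic cell genes to 19.6 and 26.7 CPM, the 8 CD4 and regulatory T cell genes to 254 and 245 CPM and the 8 gamma-delta T cell genes to 104 and 71.7 CPM. Igkc accounted for most of the B cell difference, at 6.69 and 39.1 CPM, and was at 7.43 and 52.3 CPM in other CD8 T cells. The part of RNA from other cells in the differences above was not tested.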

How the data were processed

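The cells were sorted for CD45 with viability dye and magnetic beads and sequenced as 10x 3′ v3.1 libraries, 1 per group. The authors deposited, per library, UMI counts of 32285 genes in filtered barcodes (10217 and 10190; 66152465 and 78751205 UMIs in all), aligned to mm10 (GRCm38). The submitters' processing notes name Cell Ranger 6.1.1, and the file headers 4.0.0. The counts hold no further normalization. A limit of 5000 UMIs that the study's methods state was not applied to the main values, since it removes 229 and 228 of the cycling CD8 T cells, and was run as an alternative.

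Kept were barcodes with 200 genes or more whose mitochondrial share did not exceed 10%. Cells were taken by the UMI thresholds given above, with no clustering. UMIs of a class were summed and scaled to CPM, over genes with at least 20 UMIs. In a list's median, a gene at 0 in other CD8 T cells counted at its lower bound, against 3 UMIs. Shares have Clopper-Pearson intervals, ratios the exact binomial interval of the split of UMIs, and differences of shares and the ratio of mitosis to replication UMIs the combined intervals, all at 95%. Depth was equalised by drawing 1000 UMIs per cell without replacement. Doublets were called from simulated doublets (20 components, 2000 genes, 0.8% per 1000 barcodes) and kept, and an alternative leaves them out. With 1 library per group no test was run. Python 3.11.15, numpy 2.4.6, scipy 1.17.1, scikit-learn 1.9.0 and edgeR 4.0.16 (TMM factors) were used, and the scripts were tested on simulated counts.

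The cells and gene lists were chosen with earlier results of these data known. Named were the genes of the rule, the 4 genes of a list with the most UMIs or genes past the fold (some given only by count), genes that define a list (chosen after their values were seen), and the 8 or 10 highest and lowest genes with at least 50 CPM. Mitochondrial genes and receptor or immunoglobulin segments were left out of these extremes. Markers of 8 other cell types were read as well. Some genes that the rule would name are not reported here. Mx1 and Znf683 are not among the symbols of the files. RefSeq promoter windows were matched by symbol.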

Additional observations from a re-analysis of the deposited data

Results flagged for a closer look

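Of 347 genes of the lists or named, 7 had ratios between the libraries whose counting intervals lay on opposite sides of 0 in cycling and in other CD8 T cells. The 347 include genes named for the highest and lowest of these ratios in cycling cells. The share over all genes was not taken, so 7 of 347 cannot be read as many or few. These differences were not tested, as each group is 1 library, and the spread between mice is not in the intervals. Hist1h1b was at −0.31 (−0.40 to −0.21) in cycling and 0.71 (0.37 to 1.06) in other CD8 T cells. The interferon-induced genes named here were lower in cycling and higher in other CD8 T cells. Isg15 was at −0.71 (−0.99 to −0.44) against 0.23 (0.083 to 0.37), Ifit1 at −0.92 (−1.61 to −0.25) against 0.43 (0.16 to 0.70) and Ifi27l2a at −0.088 (−0.16 to −0.012) against 0.31 (0.27 to 0.36). The transcription factor Zeb2 was at −0.71 (−1.22 to −0.21) against 0.30 (0.067 to 0.54). In the opposite direction, Tnfrsf4, encoding the costimulatory receptor OX40, was at 0.40 (0.017 to 0.78) against −0.38 (−0.56 to −0.20), and Izumo1r, encoding folate receptor 4 of regulatory and anergic T cells, at 1.27 (0.31 to 2.32) against −0.59 (−1.05 to −0.14).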

How the results depend on the processing

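No paired analysis was possible because each group is 1 library, and for the same reason no replicate could be left out. The share of cycling CD8 T cells, 16.5% and 15.5%, was 4.87% and 4.90% with at most 5000 UMIs per cell, 12.6% and 13.3% with a C1q sum under 2, 12.8% and 12.5% with at least 3 UMIs of the rule genes, 5.40% and 6.59% at 1000 UMIs, and 2.77% and 2.88% of all kept barcodes. Genes higher in cycling cells numbered 298 with at most 5000 UMIs and 899 with no filter on low counts, and lower genes 225 and 947, or 144 with the cell holding the most UMIs of each gene left out, a choice made after seeing the data. Between the libraries, 429, 2831 and 195 genes were higher and 247, 2211 and 36 lower with at most 5000 UMIs, no filter and at least 100 UMIs. The ratio of mitosis to replication UMIs was 0.31 with at most 5000 UMIs and −0.010 with a C1q sum under 2. At 1000 UMIs Trav16 was at 0.360% and 9.51% and Trav16n at 3.24% and 1.06%. The other 56 values of this kind were classed as near the main one, by size alone and under a wide limit. With TMM factors, the 877 higher and 402 lower genes between libraries became 589 and 584. With a C1q sum under 2 they became 1065 and 344, of which only 347 and 81 were among the main ones. For cycling over other cells, 403 of 569 higher and 33 of 86 lower genes were shared with that C1q limit. With at most 5000 UMIs the ratio between libraries turned for Cdc20 (−0.078), Gzma (−0.074), Acp5 (−1.28), Cxcl10 (0.78), Isg15 (0.35), Cenpf (−0.22), Brca2 (−0.63), Cd101 (−1.22), Prf1 (−0.064), Bach2 (−0.22), Id3 (1.01) and Rsad2 (1.90), and cycling over other for Mxd4 (0.063, MWA) and S100a8 and S100a9 (0.38 and 0.50, MWA plus TIGIT). With a C1q sum under 2 it turned for Acp5 (−0.087), Gzmc (1.10, and −1.02 cycling over other in the MWA library), Zeb2 (0.000156), Fcer1g (0.25) and Klrb1c (0.49), and with at least 3 rule UMIs for Tyrobp (−0.026). The cause was not tested. Of the higher genes between libraries, 35 of 877 were shared with the 429 called at 5000 UMIs or fewer. Of the lower genes, 10 of 402 were shared with 247. The shared genes are 8.16% of the 429 and 4.05% of the 247, against 9.86% and 4.52% of all genes in the main setting. All of the 429 and 247 genes were also compared in the main setting, whose cells include those left here. Their agreement with the main calls was thus near the share of all genes. How many main genes could be compared in the fewer cells left is not given. For those main genes, lost coverage and failed agreement therefore cannot be told apart.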
